A study of Homo sapiens with 6 samples.

Results

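Broad H3K4me3 domains are stretches of chromatin over which trimethylation of histone H3 at lysine 4 runs on for several kilobases. Here they were the H3K4me3 peaks of at least 5000 bp on chromosomes 1 to 22 and X in D283 tumorspheres that had received a scramble siRNA, the condition called OTX2high. They were selected on their length in that peak list. 983 of its 32449 peaks met the rule (3.03%), and these 983 domains spanned 6.48 Mb, or 13.3% of all bases under peaks. D283 is an established Group 3 medulloblastoma cell line, and the tumorspheres grew unattached in a neural precursor medium with growth factors. In the comparison condition, OTX2low, the cells carried siRNA against OTX2, at 30 nM per the labels, in place of the scramble siRNA. Each condition had 1 H3K4me3 library and 1 H3K27me3 library, and 2 IgG libraries whose titles and silencing labels disagree were placed in no group. A single cell line, a transient siRNA and 1 library per mark and condition mean that no difference below has a replicate check. A lower signal in such bulk chromatin can come from fewer cells that carry the mark or from less of it in each cell, and these cannot be told apart.

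H3K4me3 is written by the SET1 and MLL (KMT2) methyltransferase complexes at gene starts, and at most active genes it forms a short peak just after the start site. In many cell types a minority of genes carry much longer domains, and these often include genes of cell identity together with some of the most steadily transcribed housekeeping genes. In Group 3 medulloblastoma, OTX2 is a homeodomain transcription factor of the developing brain and retina that is highly expressed, and it acts upstream of a photoreceptor-like program that includes CRX. H3K27me3, the mark of Polycomb repressive complexes, can lie on the same promoters as H3K4me3, a state called bivalent.

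The promoter windows shown for the longest domains were not of one kind, and their sequences are given for this reason. Each is the RefSeq window (GRCh38.p14) from 250 bases before the start site to 50 after it, given 5′ to 3′ along the gene's strand, with CpG dinucleotides in capitals. Where a gene has several starts, the window is that of the start nearest the domain's summit. Other windows of the same gene can differ from it. The first 5 belong to genes at the longest domains with a window in the table. The last 3, CRX, PRAME and PDGFRA, were chosen after their values were seen. CRX is a photoreceptor regulator whose domain had far more signal in OTX2high. PRAME and PDGFRA lie at 2 domains whose differential region had more signal in OTX2low. Of the PRAME region, 29.1% lay inside the domain.
RHOU promoter, chr1:228644397-228644696, plus strand: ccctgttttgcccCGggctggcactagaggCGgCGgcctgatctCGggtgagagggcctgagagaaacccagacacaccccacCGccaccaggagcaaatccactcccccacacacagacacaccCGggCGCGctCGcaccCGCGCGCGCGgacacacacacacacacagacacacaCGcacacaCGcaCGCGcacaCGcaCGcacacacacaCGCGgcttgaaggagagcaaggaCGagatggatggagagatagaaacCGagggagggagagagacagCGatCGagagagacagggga
OTX2 promoter, chr14:56805618-56805917, minus strand: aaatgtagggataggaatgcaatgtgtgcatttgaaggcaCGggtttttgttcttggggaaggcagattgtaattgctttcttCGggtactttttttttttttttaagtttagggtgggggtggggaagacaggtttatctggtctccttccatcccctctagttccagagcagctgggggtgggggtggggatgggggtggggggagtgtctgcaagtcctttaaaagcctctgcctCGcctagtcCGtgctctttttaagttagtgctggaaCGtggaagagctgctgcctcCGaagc
NUDT4 promoter, chr12:93378328-93378627, plus strand: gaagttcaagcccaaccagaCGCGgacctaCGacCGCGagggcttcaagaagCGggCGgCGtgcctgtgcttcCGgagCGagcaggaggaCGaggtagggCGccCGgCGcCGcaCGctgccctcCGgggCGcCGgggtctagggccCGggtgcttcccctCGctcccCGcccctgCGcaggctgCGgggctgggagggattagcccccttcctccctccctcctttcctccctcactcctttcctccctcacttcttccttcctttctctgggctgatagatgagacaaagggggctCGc
NFIB promoter, chr9:14314905-14315204, minus strand: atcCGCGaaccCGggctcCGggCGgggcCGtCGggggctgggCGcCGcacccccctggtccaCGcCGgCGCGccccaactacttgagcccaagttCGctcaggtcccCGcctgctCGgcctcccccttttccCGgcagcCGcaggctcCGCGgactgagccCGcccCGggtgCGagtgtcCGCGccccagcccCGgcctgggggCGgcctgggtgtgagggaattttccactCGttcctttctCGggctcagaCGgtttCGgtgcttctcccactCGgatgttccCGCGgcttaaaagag
LHX8 promoter, chr1:75134138-75134437, plus strand: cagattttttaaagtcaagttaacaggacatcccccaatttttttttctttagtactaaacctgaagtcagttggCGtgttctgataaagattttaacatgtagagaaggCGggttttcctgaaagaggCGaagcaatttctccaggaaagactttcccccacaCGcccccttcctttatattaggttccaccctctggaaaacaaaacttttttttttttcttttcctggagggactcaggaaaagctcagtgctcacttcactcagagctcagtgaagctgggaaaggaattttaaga
CRX promoter, chr19:47821687-47821986, plus strand: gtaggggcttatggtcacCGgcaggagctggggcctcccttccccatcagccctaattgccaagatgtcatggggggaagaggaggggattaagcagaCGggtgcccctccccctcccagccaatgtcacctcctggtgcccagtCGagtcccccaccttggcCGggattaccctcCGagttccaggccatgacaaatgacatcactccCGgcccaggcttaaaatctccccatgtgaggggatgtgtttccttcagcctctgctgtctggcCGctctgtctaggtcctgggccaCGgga
PRAME promoter, chr22:22557583-22557882, minus strand: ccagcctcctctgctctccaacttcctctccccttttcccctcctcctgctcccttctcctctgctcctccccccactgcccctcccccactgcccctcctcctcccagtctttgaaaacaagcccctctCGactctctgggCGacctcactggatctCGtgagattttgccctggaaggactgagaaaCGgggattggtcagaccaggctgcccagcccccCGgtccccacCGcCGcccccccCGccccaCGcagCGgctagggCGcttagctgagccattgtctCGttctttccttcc
PDGFRA promoter, chr4:54233710-54234009, plus strand: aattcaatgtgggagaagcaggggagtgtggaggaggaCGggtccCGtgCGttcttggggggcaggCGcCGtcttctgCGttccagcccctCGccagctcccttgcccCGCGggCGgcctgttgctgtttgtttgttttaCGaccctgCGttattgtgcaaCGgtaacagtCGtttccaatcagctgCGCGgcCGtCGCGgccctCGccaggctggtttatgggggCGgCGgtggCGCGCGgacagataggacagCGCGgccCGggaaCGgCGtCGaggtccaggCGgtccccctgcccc
The OTX2 window held 6 CpG dinucleotides and the LHX8 window 4, while the NFIB window held 34 and the PDGFRA window 32. The ratio of observed to expected CpG was 0.35 for OTX2, 0.32 for LHX8 and 0.29 for CRX, against 0.89 for NFIB and 0.97 for PDGFRA. The CRX window held 2 matches on either strand to TAATCC, a core motif that OTX2 and CRX can bind, and the NUDT4 window held 1. A match is a description of the letters and does not show binding.

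One of the domains covered the miR-17-92 cluster, whose microRNAs are known as an oncogenic group and as targets of MYC. The mature microRNAs below are those of its main arms, from RefSeq, with the seed (bases 2 to 8) in capitals, to show which of them share a seed.
hsa-miR-17-5p: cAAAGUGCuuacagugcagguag
hsa-miR-20a-5p: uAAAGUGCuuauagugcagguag
hsa-miR-18a-5p: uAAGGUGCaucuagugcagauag
hsa-miR-19a-3p: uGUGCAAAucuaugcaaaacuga
hsa-miR-19b-3p: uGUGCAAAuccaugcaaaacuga
hsa-miR-92a-3p: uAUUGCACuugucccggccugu
miR-17-5p and miR-20a-5p share the seed AAAGUGC, and miR-19a-3p and miR-19b-3p share GUGCAAA. The domain over these hairpins, on chromosome 13 from 91346572 to 91353672 (GRCh38), was 7101 bp long, and OTX2low peaks covered 83.7% of it. It met 3 regions of the authors' deposited table, and the one with the most reads had 1762.2 normalized reads in OTX2high against 1036.7 in OTX2low, a log2 ratio of 0.77. Another, inside the domain from 91347101 to 91349400, went the other way in the authors' deposited table, with 762.6 against 989.1 normalized reads (-0.38). Normalized reads are reads of a region scaled per library, and a positive log2 ratio means more in OTX2high. For a domain with several regions, the value given below is that of the region with the most reads. The differential regions touching any OTX2high peak had a median log2 ratio of 0.61 according to the authors' deposited table, which gives no ratio for the peaks without such a region. A ratio between 0 and 0.61 is above equality but below this median, and recentring on the median turns its sign.

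The domains had a median length of 6020 bp, with a middle range of 5413 to 7008 bp. 500 of them reached 6000 bp, 128 reached 8000 bp, 41 reached 10000 bp and 5 reached 20000 bp. Every autosome and chromosome X held some, from 10 on chromosome 21 to 118 on chromosome 1. The fold enrichment over local background at the summit, which is the authors' own value for each peak, had a median of 49.7 over the domains and 49.4 over the peaks of 4000 to 4999 bp. Peaks under 5000 bp as a whole had a median of 10.2. The 5000 bp limit cut through a continuous distribution. Just inside it lay the domains at CASZ1 (5000 bp), TRAF4 (5000 bp) and SOD1 (5004 bp), and just outside the peaks at MPC2 and DCAF6 (4996 bp), NPTX1 (4997 bp) and PPIA (4997 bp).

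**Figure D1:**
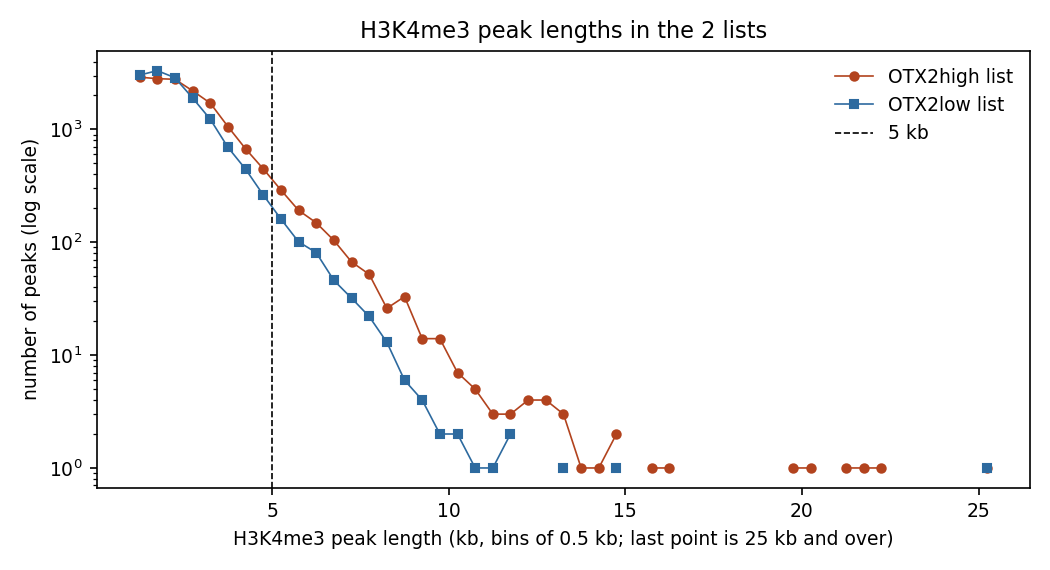
Number of H3K4me3 peaks (log scale) against peak length in bins of 0.5 kb, for the OTX2high and OTX2low lists from 1 kb up. Both curves fall through the dashed 5 kb line without a break, and above it the OTX2high list holds 983 peaks and the OTX2low list 477.

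The OTX2low list held 477 peaks of at least 5000 bp, fewer than the 983 of OTX2high. The OTX2high library was also the deeper one, with 33137731 tags after filtering against 20914582, a ratio of 1.58, and its IgG control had 85840108 tags against 55079542. The number and the length of called peaks depend on depth, and the part of depth in the lower number was not tested. OTX2low domains touched 414 of the 983 OTX2high domains (42.1%), and 413 of the 477 OTX2low domains (86.6%) touched an OTX2high domain. The other 64 OTX2low domains did not, and the longest of these lay at NPTX1, a neuronal pentraxin (8165 bp), at RGMB (8141 bp) and at INHBE and GLI1 (7574 bp). These stretches were not bare in OTX2high, whose peaks covered 59.9% at NPTX1, 93.8% at RGMB and 96.6% at INHBE and GLI1. At NPTX1 the OTX2high peak was 4997 bp long, just under the limit. RGMB and INHBE with GLI1 each met 2 OTX2high peaks, all under the limit.

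The longest domain of all was not a usual promoter domain. It ran for 40330 bp on chromosome 1, from 228608268 to 228648597, across 17 ribosomal RNA genes of the RefSeq table, the tandem array of 5S genes. Near its end lay a RefSeq start of RHOU, a small GTPase. The domain's summit stood at -22227 bp from that start, so the domain is named by RHOU for position only. Its fold enrichment of 6.77 was the lowest of all 983 domains. Its region with the most reads had 9039 normalized reads in OTX2high against 11714.6 in OTX2low in the authors' deposited table, a log2 ratio of -0.37 (95% counting interval -0.41 to -0.33), and its 4 regions were of both directions. Peaks in such a repeat array depend on how reads with several matches were placed, which is not given in the sources used here.

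The longest domain at a single transcription factor gene was that of OTX2 itself. It spanned 22156 bp on chromosome 14, from 56796849 to 56819004, and reached both sides of the start site. In OTX2low the same stretch held 5 separate peaks, the longest of 10569 bp, which together covered 91.9% of it. Its region in the authors' deposited table had 3119.1 normalized reads in OTX2high against 1767.5 in OTX2low, a log2 ratio of 0.82 (0.73 to 0.91). The siRNA acts on the transcript and leaves the DNA of the gene in place.

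Several other developmental regulators stood among the 12 longest. LHX8, a LIM homeodomain factor of forebrain neurons, had a domain of 19778 bp with 2555.9 against 1406.5 normalized reads in the authors' deposited table (log2 ratio 0.86, 0.76 to 0.96). NFIB, a nuclear factor I family member of neural and glial development, had a domain of 20282 bp, of which OTX2low covered 92.6%, and another of 10247 bp, of which it covered 64.3%. The T-box factor gene TBR1, known from glutamatergic neurons, carried 15643 bp, and 97.3% of these bases lay under OTX2low peaks. The domain at LRBA and MAB21L2 was 14517 bp long.

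The other long domains lay at genes of general cell function or at no annotated gene. NUDT4, which encodes a diphosphoinositol polyphosphate phosphatase, had 21006 bp, and only 43.2% of this was covered in OTX2low. The authors' deposited table gave NUDT4 3573.8 normalized reads in OTX2high against 1798.9 in OTX2low (log2 ratio 0.99, 0.90 to 1.08). HNRNPC, an RNA-binding protein of pre-mRNA, had 16031 bp that broke into 11 peaks in OTX2low. The domain at SNX5 and MGME1 was 14828 bp long, that at RAB34, RPL23A, TLCD1 and NEK8 14031 bp, and that at HSPA1B, a heat-shock protein with a near-identical neighbouring copy, 13569 bp. A stretch of 21606 bp on chromosome 13 from 70716887 touched no coding or lncRNA gene of the table and held 16 separate OTX2low peaks, the most of any domain.

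All 983 domains were touched by at least 1 OTX2low peak. The share of a domain's bases under OTX2low peaks had a median of 85.6%, a middle range of 76.0 to 92.6% and extremes of 5.68 and 100%. Peaks of 4000 to 4999 bp had nearly the same median, 87.0%, and those of 3000 to 3999 bp 87.3%. 341 domains (34.7%, 95% Wilson interval 31.8 to 37.7%) were covered to at least 90% and 26 (2.65%, 1.81 to 3.85%) to less than 50%. Because the domains were chosen for length in OTX2high, a shorter extent in OTX2low is partly set by the choice. With the choice reversed, the 477 OTX2low domains had a median of 100% of their bases under OTX2high peaks.

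**Figure D2:**
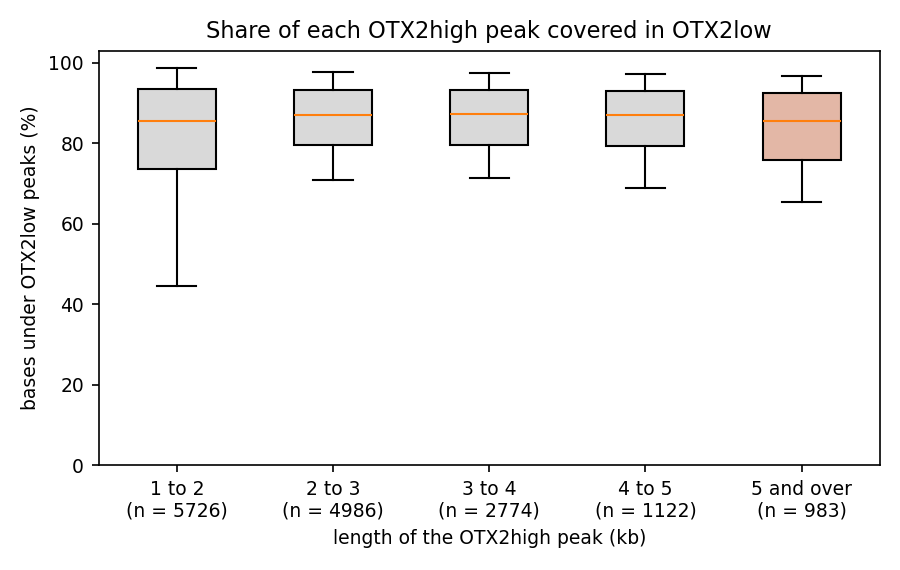
Share of each OTX2high peak's bases that lay under OTX2low peaks, by length of the OTX2high peak. Boxes give the median and quartiles and whiskers the 10th and 90th percentiles. The domains of 5 kb and over have a median of 85.6%, close to the 87.0% of peaks of 4 to 5 kb.

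The number of OTX2low pieces was higher for longer peaks. 408 domains were touched by 1 OTX2low peak, 322 by 2 and 253 by 3 or more. Thus 58.5% (55.4 to 61.5%) were met by several OTX2low peaks, against 36.7% (34.0 to 39.6%) of the peaks of 4000 to 4999 bp and 23.4% of those of 3000 to 3999 bp. A longer stretch has more room for gaps, and no correction for length was made. Of the 1.12 Mb of domain bases not covered in OTX2low, 72.8% lay at the outer edges of the domains and 27.2% between OTX2low peaks.

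The domains reached mainly into the gene. 552 of them had a single gene with a known start and strand inside the domain. These extended a median of 4483 bp downstream of the start, in the direction of transcription, and 1513 bp upstream. The downstream arm was the longer one in 503 of 552 (91.1%, 88.5 to 93.2%), and 72.3% of all their bases lay downstream. Shorter peaks were already asymmetric, with 67.0% of bases downstream in peaks of 2000 to 2999 bp and 69.4% in those of 4000 to 4999 bp. The bases not covered in OTX2low leaned the same way. In the domains, 18.1% of downstream bases and 14.4% of upstream bases were uncovered. Peaks of 4000 to 4999 bp had the same lean, with 15.45 and 13.7%, so it was not particular to the domains. In peaks of 2000 to 2999 bp the shares were 13.6 and 14.7%.

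PROM1, the CD133 cell surface antigen of neural stem cells, shows this shape. Its domain on chromosome 4, from 16076820 to 16084945, was 8126 bp long, and the single OTX2low peak of 2988 bp at the start covered 36.8% of it. The PROM1 region of the authors' deposited table had 2338.1 normalized reads in OTX2high against 994.1 in OTX2low, a log2 ratio of 1.23 (1.12 to 1.35). That region was 14600 bp long, and 55.7% of it lay inside the domain. NPM1, the abundant nucleolar chaperone nucleophosmin, had 13321 bp, most of it within the gene, and 49.4% covered by 6 separate OTX2low peaks. The PDGFRA domain lay almost wholly upstream of the start used for that gene, the one nearest the summit. Whether another start of PDGFRA lies inside the domain was not examined, so no contrast in shape is drawn.

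**Figure D3:**
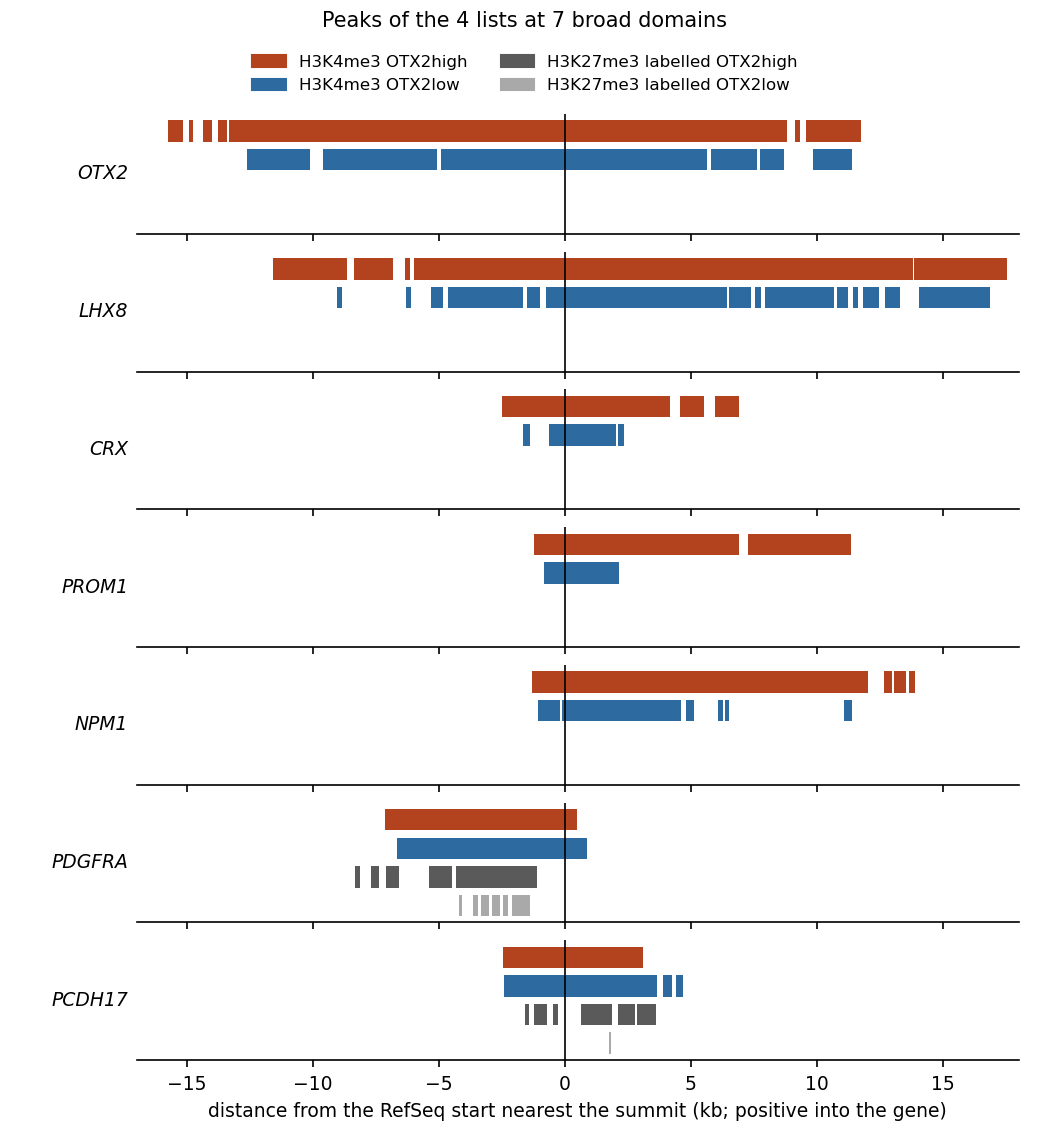
Peaks of the 4 lists around 7 broad domains, against distance from the RefSeq start nearest the summit (kb, positive into the gene). Each bar is 1 called peak. At PROM1 the OTX2low peak stops short of the OTX2high domain, and at NPM1 6 OTX2low peaks leave wide gaps along it. At OTX2 and LHX8 the OTX2low peaks cover most of the domain in pieces, and PDGFRA and PCDH17 also carry H3K27me3 peaks.

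The domains marked 1124 of 19974 protein-coding genes (5.63%), taking a gene as marked when its start lay within 2000 bp. 900 domains had such a gene, of which 686 had 1 gene, 190 had 2 and 24 had 3 or more. At 16 genes 2 separate domains were found, among them NFIB, ZIC4, the chromatin genes CBX3, CBX5 and BRD2, and the amino acid transporter subunit SLC3A2. OTX2low domains marked 541 genes (2.71%). Gene lists were set against these shares as a description.

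Genes of protein synthesis were the list most often under a broad domain. Of 78 cytosolic ribosomal protein genes, 31 (39.7%, exact interval 28.8 to 51.5%) lay at one, among them RPL23A, RPL3, RPL7 and RPS15A. Among genes with any OTX2high peak the share was 40.3% for this list and 8.01% for all protein-coding genes. RPL3 had a domain of 8875 bp with 1814 against 1167.1 normalized reads in the authors' deposited table (log2 ratio 0.64, 0.53 to 0.75). RPS15A had 7689 bp, with 2097.2 against 1139.5 normalized reads in the authors' deposited table (0.88, 0.77 to 0.99). The authors' deposited table placed 30 of the 31 higher in OTX2high only and 1 in both directions, where it placed 925 of all 1124 genes at a domain, 82.4% of all domains and 37.1% of all OTX2high peaks in the first class. The median log2 ratio of the list in the authors' deposited table was 0.64, against 0.57 for all genes at a domain. In the OTX2low list 10 of the 78 lay at a domain.

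Of 35 housekeeping genes, 12 (34.3%, 19.1 to 52.2%) lay at a domain, including TUBB (8983 bp), the constitutive heat-shock protein HSPA8 (8677 bp), the glycolytic enzyme ENO1 (7505 bp) and HSP90AB1 (7045 bp). HSPA8 had 66.1% of its domain covered in OTX2low. Of 35 cell cycle and MYC genes, 9 (25.7%, 12.5 to 43.3%) did. The longest were NPM1, the cyclin CCND2 (12742 bp) and the kinase CDK6 (8762 bp). The MYC domain was 7553 bp long and 98.5% covered in OTX2low, with 1380.9 against 1090.6 normalized reads in the authors' deposited table (0.34, 0.22 to 0.46), a ratio below the median of 0.61 over differential regions in peaks. MYCN went the other way, at 457.1 against 735.8 normalized reads in the authors' deposited table (-0.69, -0.86 to -0.52), and was chosen for mention after its value was seen. Of 32 tumor suppressor genes, 9 (28.1%, 13.8 to 46.8%) lay at a domain, among them the cell cycle inhibitors CDKN1B (9525 bp) and CDKN1A (7663 bp) and the Hedgehog receptor PTCH1 (8521 bp).

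Among 26 Group 3 and photoreceptor regulators, 7 (26.9%, 11.6 to 47.8%) had a broad domain. They were OTX2, CRX, NEUROD1, ISL2, LHX4, the interphotoreceptor matrix gene IMPG2 and the cone G protein subunit GNB3. The authors' deposited table had all 7 higher in OTX2high only, the class of 82.4% of all domains, with a median log2 ratio of 0.82. The domain of CRX, the homeodomain regulator of photoreceptor genes, lay on chromosome 19 from 47819429 to 47826126 and also touched TPRX1. It was 6698 bp long, and 3 OTX2low peaks covered 46.8% of it. Its region had 1718.3 normalized reads in OTX2high against 379.8 in OTX2low in the authors' deposited table, a log2 ratio of 2.18 (2.00 to 2.36). Of that region's 10700 bp, 62.6% lay inside the domain. IMPG2 had 1521.3 against 561.6 normalized reads in the authors' deposited table (1.44, 1.29 to 1.59) and a domain covered to 65.1% in OTX2low. LHX4 and NEUROD1 were covered to 99.3 and 89.5%. In the OTX2low list 3 of these 26 genes were at a domain.

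Of 33 neural progenitor genes, 7 lay at a domain (21.2%, 8.98 to 38.9%), and the authors' deposited table had all 7 higher in OTX2high only, again the class of 82.4% of all domains, with a median log2 ratio of 0.50, below the 0.61 of differential regions in peaks. Besides PROM1 these were the SOX factors SOX11 (8973 bp) and SOX4 (6832 bp), the RNA-binding protein MSI2 (6453 bp), VIM, HES1 and ID1. SOX11 and SOX4 kept 95.8 and 94.8% of their extent in OTX2low. Of 41 neuronal differentiation genes, 5 (12.2%, 4.08 to 26.2%) lay at an OTX2high domain, an interval that includes the 5.63% of all genes. In the OTX2low list 10 of the 41 lay at a domain, against 2 of the 33 neural progenitor genes and 541 of all 19974 protein-coding genes. The 5 at an OTX2high domain were ELAVL2 (11539 bp), SYT1 (8518 bp), NEFM (6334 bp), POU3F2 and ONECUT2, and none of them was covered below 87.4% in OTX2low. NEFM, a neurofilament subunit, had 206.6 against 359.8 normalized reads in the authors' deposited table (-0.80, -1.05 to -0.55). TBR1, ZIC1 and ZIC4 were the 3 of 32 rhombic lip, granule and unipolar brush cell factors at a domain.

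Chromatin regulators of the Polycomb, Trithorax and H3K4 methylation list were at a domain in 6 of 42 cases (14.3%, 5.43 to 28.5%), among them PCGF2 (9435 bp), KDM2B (6275 bp) and KMT2D (6147 bp). Of 61 signaling ligands, receptors and antagonists, 14 were (22.95%, 13.2 to 35.5%). IRS1, the insulin receptor substrate, had 9977 bp met by 6 OTX2low peaks and 1447.9 against 644.3 normalized reads in the authors' deposited table (1.17, 1.03 to 1.31). BMP7 had 1839.5 against 734.6 normalized reads in the authors' deposited table (1.32, 1.19 to 1.46) and 54.7% of 6727 bp covered. The other leading members of this list were the Wnt receptor FZD1 (7169 bp) and BMP4 (6281 bp). No gene of the HOX clusters was at a domain (0 of 39, which allows up to 9.03% and so includes the 5.63% of all genes), although 29 of them had an OTX2high peak.

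Of 14 glial markers, 2 lay at a broad domain (14.3%, 1.78 to 42.8%), PDGFRA among them. None of 20 immune, blood and endothelial markers did (up to 16.8%) and none of 19 mesenchymal, muscle and epithelial markers (up to 17.65%), limits that include the 5.63% of all genes. Of these 2 lists, 6 and 7 genes had any H3K4me3 peak. By comparison, 18 of the 26 Group 3 and photoreceptor regulators had a peak.

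**Figure D4:**
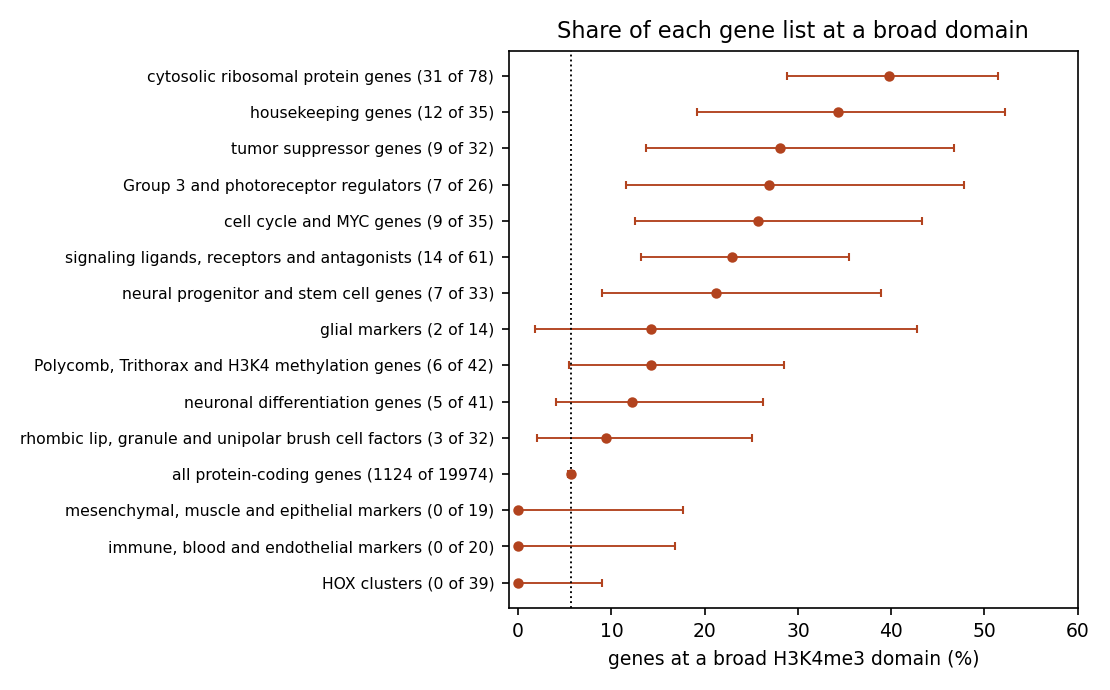
Share of each gene list at a broad OTX2high domain, with exact 95% intervals, and the share over all protein-coding genes as a dotted line. The cytosolic ribosomal protein list stands highest at 39.7%, and 3 lists stand at 0.

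snoRNA genes under H3K4me3 peaks lay mostly under broad domains. Of 1196 snoRNA genes in the RefSeq table, 166 lay under any OTX2high peak and 95 of these under one of 41 broad domains (57.2%), although the domains made up 13.3% of peak bases. snoRNAs guide the modification of ribosomal RNA and often sit in introns of ribosomal protein and other translation genes. The domain at ZBTB37, which spans the snoRNA host GAS5, held 11 of them, one SLC3A2 domain held 9 and the EIF4A2 domain 5. The shares were lower for tRNA, snRNA and microRNA genes. Of 443 tRNA genes, 303 lay under a peak and 47 of these under 14 domains (15.5%), near the 13.3% of peak bases. None of 154 snRNA genes lay under a domain, although 44 lay under a peak. Of 1562 microRNA hairpins, 207 lay under a peak and 35 of these in 26 domains (16.9%). Besides the miR-17-92 cluster these included MIR137, a neuronal microRNA, under 9283 bp, and MIR15B with MIR16-2 under the 6822 bp domain at SMC4.

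83 domains had no protein-coding start within 2000 bp. 39 of them touched an lncRNA gene, 40 a protein-coding gene body and 17 neither. The nuclear lncRNA genes NEAT1 and MALAT1, which build and accompany nuclear bodies, had domains of 9632 and 9482 bp. NEAT1 was covered to 73.9% in OTX2low and MALAT1 to 98.3%. As a set, the 83 domains without a coding start had higher ratios than the others. In the authors' deposited table their median log2 ratio was 0.81 (n = 75), against 0.59 (n = 830) for domains with a coding start, and their median fold enrichment was 37.1. Shorter peaks were not split this way, so the difference is not shown to be particular to the domains. The authors' deposited table gave a median of 1.53 for peaks under 1000 bp, 19.5% of them at a gene start. For peaks of 4000 to 4999 bp, 92.8% of them at one, it was 0.53.

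The authors' deposited table, a comparison of 1 library against 1 by a G-test, listed a differential region at 905 of the 983 domains (92.1%), against 42.7% of all OTX2high peaks. It placed 810 domains (82.4%) in the class higher in OTX2high only, where the share was 37.1% of all OTX2high peaks and 79.8% of peaks of 4000 to 4999 bp. The authors' deposited table had 33 domains (3.36%) higher in OTX2low only, against a background of 4.83%, and 62 (6.31%) with regions of both directions, against 0.709%. A longer peak meets more regions, and since the domains were chosen on one of these libraries nothing is read from these shares. Another 71 domains met no region of the authors' deposited table. The last 7 lay beyond its last region on their chromosome and had no chance of a call, among them those of ACTG1, FASN and RACK1. The header of that table names genome hg19 while the reads were aligned to GRCh38, and chromosome 17 regions ended at 81167600 where H3K4me3 peaks reached 83110093.

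Over the 905 domains the median log2 ratio in the authors' deposited table was 0.60, with a middle range of 0.46 to 0.77, and 851 were above 0 and 54 below. Relative to the median of 0.61 over regions in all OTX2high peaks of the authors' deposited table, 419 domains lay above and 474 below. These normalized reads were already scaled by library. Whether the positive median of the called regions holds a difference in immunoprecipitation between the 2 libraries was not tested.

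**Figure D5:**
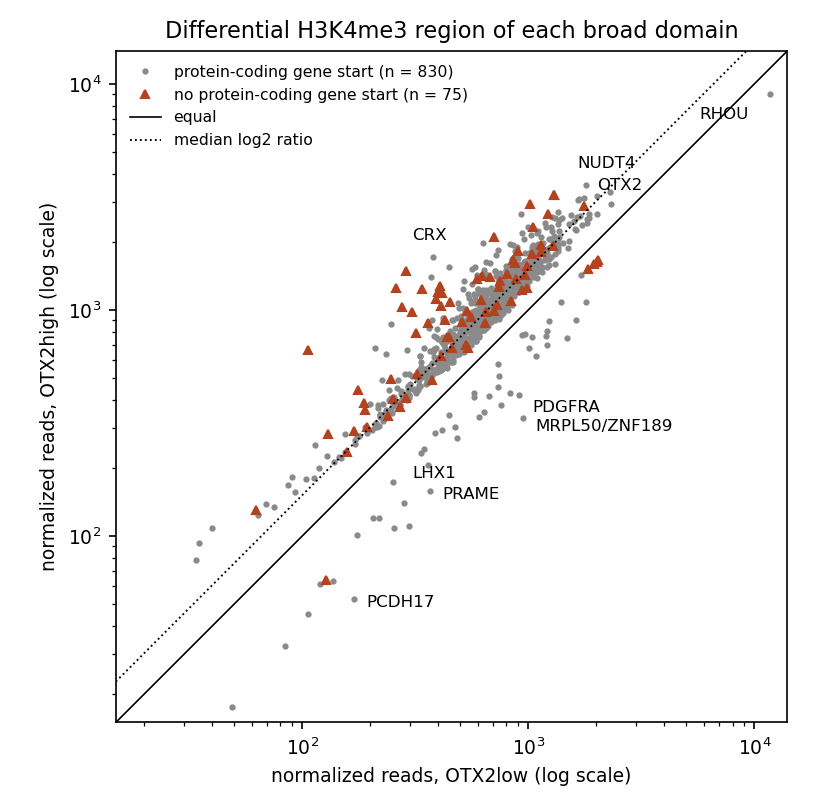
Normalized reads of the differential region with the most reads at each of 905 domains, OTX2high against OTX2low, both on log scales, from the authors' deposited table. Most points follow the dotted line of the median log2 ratio of 0.60, triangles without a protein-coding start often lie above it, and PDGFRA, PRAME and PCDH17 lie below the line of equality.

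Of the 10 domains with the highest ratios, 5 had no protein-coding start. The highest was a domain of 5361 bp on chromosome X from 149611270, with 665.3 normalized reads in OTX2high against 106.5 in OTX2low in the authors' deposited table (2.64, 2.32 to 2.98), of which OTX2low peaks covered 11.1%. Domains on chromosome 3 from 152595437 and on chromosome 4 from 84102310 followed, and the authors' deposited table gave them log2 ratios of 2.37 and 2.27. Further down, the potassium channel subunit KCNF1 and the amino acid transporter SLC38A5 both stood at 1.80 and the mucin MUC16 at 1.69 in the authors' deposited table.

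Some domains had few bases under OTX2low peaks. The least covered, 5793 bp on chromosome 3 from 164342161, had 5.68% of its bases under an OTX2low peak. Its region in the authors' deposited table ran for 16800 bp, of which 34.5% lay inside, and also spanned the neighbouring domain from 164335914, which OTX2low peaks covered to 74.8%. That shared region had 3225.2 normalized reads in OTX2high against 1305 in OTX2low in the authors' deposited table (1.31, 1.21 to 1.41), which cannot be divided between the domains. MUC16 was covered to 21.8%, EMB, an immunoglobulin superfamily protein, to 31.4%, and one of the CBX5 domains, at the gene for heterochromatin protein HP1 alpha, to 33.2%.

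Domains with more signal in OTX2low were fewer, and part of the differing regions lay beside the domain. PDGFRA, the PDGF receptor of glial progenitors, had 418.8 normalized reads in OTX2high against 913.9 in OTX2low in the authors' deposited table (-1.13, -1.29 to -0.96), over a region that lay wholly inside its domain. The domain at MRPL50 and ZNF189 had 331.9 against 947.7 normalized reads in the authors' deposited table (-1.51, -1.69 to -1.34), but 26.1% of that region lay inside the domain. The protocadherin genes PCDH17 (-1.68) and PCDH10 (-1.23), the tumor antigen gene PRAME (-1.22) and the histone genes H2BC4 and H2AC6 (-1.42) also had low log2 ratios in the authors' deposited table. For PCDH17 14.9%, for PCDH10 18.1%, for PRAME 29.1% and for H2BC4 and H2AC6 21.6% of the region lay inside. Of the 33 domains placed in OTX2low only by the authors' deposited table, 11 had less than 50% of the region inside, against 10 of the 810 placed in OTX2high only. At PRAME and PCDH10 a single OTX2low peak, of 7664 and 7652 bp, ran past the OTX2high domain, which it covered to 99.9 and 100%.

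H3K27me3 was uncommon on these domains. The H3K27me3 lists are named here by their sample label, since the headers of both name the opposite condition, and no direction is drawn from them. A peak of the list labelled OTX2high touched 51 domains (5.19%, 3.97 to 6.76%), against 12.3% of all OTX2high H3K4me3 peaks. The list labelled OTX2low touched 26 (2.65%, 1.81 to 3.85%), against 8.53%. Peaks of 4000 to 4999 bp had 5.08 and 2.23%, so the low share was common to long H3K4me3 peaks. 24 domains were touched in both lists. Peaks of both marks at a place can come from the same chromosomes or from different cells, which cannot be told apart here.

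The domains most covered by H3K27me3 were of 2 sorts. LHX1, a LIM homeodomain gene, was covered to 100 and 93.4% in the lists labelled OTX2high and OTX2low. GFI1, a zinc-finger repressor that can be activated in Group 3 tumors, was covered to 95.2 and 49.7%. The other 4 were neighbouring domains on chromosome 1 between 161446198 and 161473770, each with 4 or 5 tRNA genes, which were covered to between 88.0 and 95.7% in the first list and 76.5 and 85.1% in the second. Like the 5S array, with 71.6 and 44.3%, these are repeated sequences, and the 4 tRNA domains had log2 ratios for H3K4me3 from -0.31 to -0.29, with regions of both directions, in the authors' deposited table. Leaving out the 15 domains with tRNA or rRNA genes gave 4.65 and 2.17% touched.

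Below these came LHX4, at 87.5 and 33.9%, and PDGFRA stood at 61.1 and 24.7%. Of the 14 signaling genes at a domain, the list labelled OTX2high touched 7. Over all 1124 genes at a domain it touched 51. Its peaks covered little of these 7 domains, from 3.51% at BMP2 through 5.93% at BMP7 to 18.5% at BMP4. Peaks of the list labelled OTX2low touched 1 of the 14 and 23 of the 1124. A smaller share of the domains touched by H3K27me3 than of the others had H3K4me3 higher in OTX2high only, with the repeat domains counted. Of the 53 touched in either list, 26 (49.1%, 36.1 to 62.1%) were higher in OTX2high only and 9 (16.98%, 9.2 to 29.2%) in OTX2low only in the authors' deposited table. Another 13 had both directions, among them the ribosomal RNA array and the neighbouring tRNA domains, and the shares without these repeats were not taken. Of the 930 not touched, the authors' deposited table had 784 (84.3%, 81.8 to 86.5%) and 24 (2.58%, 1.74 to 3.81%), and 49 with both directions. Over all OTX2high peaks the shares of the first 2 classes were 37.1 and 4.83%, and shorter peaks were not split by H3K27me3. The median H3K4me3 fold enrichment was 42.25 for the touched domains and 50.1 for the others. OTX2low peaks covered a median of 90.8% of the touched domains and 85.2% of the others.

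In sequence, the promoters at broad domains resembled those under shorter H3K4me3 peaks. Each gene counted with 1 window, that under its longest peak and, among several under the same peak, the first in the table. Over 894 genes with such a window touching a domain, the median ratio of observed to expected CpG was 0.88 and the median GC content 65.7%. Windows under peaks of 2000 to 4999 bp had 0.87 and 66.3% (n = 7205), and windows with no peak 0.26 and 52.0% (n = 4746). A ratio of at least 0.6 was found in 90.8% (88.8 to 92.6%) of domain promoters and 91.3% (90.7 to 92.0%) of those under peaks of 2000 to 4999 bp. The exceptions with few CpG included ZBTB18, PCGF2 and IMPG2, whose windows held 1, 2 and 1.

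The TATA-box letters TATAAA were, of 4 motifs searched, the one whose share differed most from that under shorter peaks. On either strand they occurred in 83 of 894 domain promoters (9.28%, 7.55 to 11.4%), in 4.33% (3.88 to 4.83%) of windows under peaks of 2000 to 4999 bp and in 9.55% of all 15812 windows. Histone genes contributed 10 of the 83, out of 16 histone gene windows at domains, and these were counted by symbol after the list was seen. Ribosomal protein genes contributed 3 of 23. The LHX8 window printed above holds the letters on the reverse strand but is not among the 83, because another LHX8 window stands first in the table. With the window nearest the summit in place of the first, a choice made after seeing the data, the shares with TATAAA were 8.61% (6.95 to 10.6%) at domains and 3.96% (3.53 to 4.43%) under peaks of 2000 to 4999 bp. TAATCC occurred in 4.81% (3.59 to 6.42%) of domain promoters, 4.09% of windows under peaks of 2000 to 4999 bp and 5.26% of all windows. For the E-box CAGATG the shares were 8.95% (7.25 to 11%), 7.83% and 11.4% in the same order, and for the GC box GGGCGG 72.3% (69.2 to 75.1%), 74.8% and 59.9%. All 3 domain shares thus lay between those of the shorter peaks and those of all windows. None of these 4 motifs is contained in another, and absence of a match says only that the letters are not in this window.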

How the data were processed

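Chromatin from D283 tumorspheres was sequenced in 6 libraries. Per the submitters' processing notes, the aligner was Bowtie2 2.3.3.1, the genome GRCh38 and the peak caller MACS2 2.1.1.20160309. Per the file headers, peaks were called per library, unpooled, with 1 IgG library as control and a q-value cutoff of 0.05. The deposited peak lists give for each peak its pileup signal, its p-value and q-value as −log10, and its fold enrichment, a ratio over local background. Per the file headers, diffReps 1.55.6 used 1000 bp windows moved by 100 bp and a p-value cutoff of 0.0001. The authors' deposited table holds a normalized read signal, the log2 of the OTX2high to OTX2low ratio, raw and adjusted p-values, and it holds only regions that passed. Its p-values compare the reads of 2 libraries, not the conditions, and were not used.

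The step of 1 read was 0.7977 for OTX2high and 1.25 for OTX2low, and 100% of values were whole reads within 0.05. The 95% counting intervals of log2 ratios are exact (Clopper-Pearson) intervals on these reads. Shares of regions or promoters have Wilson intervals and shares of gene lists exact ones. All intervals cover counting error only, and PCR reads are not independent molecules. A domain's value is that of its overlapping region (at least 1 bp) with the most reads. This region covered a median of 49.0% of the domain. A gene was at a domain when its start lay within 2000 bp. Starts came from the RefSeq promoter table for 15812 genes and both gene ends were used for the other 4162. Python 3.11.15 with pandas 2.3.3, numpy 2.4.6 and scipy 1.17.1 was used, and the functions were tested on simulated data.

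The domains and the 14 gene lists (506 genes) were chosen with earlier results of these data known. The text names the genes at the 12 longest domains, the 10 highest and 10 lowest ratios (at least 100 normalized reads in 1 library), the 8 least covered in OTX2low, the 6 most covered by H3K27me3, up to 4 per list with the longest domains, and 3 peaks on either side of the limit; other genes were named after their values were seen. A few genes that this rule picks are not reported here. 4 peaks of at least 5000 bp on other sequences were left out. The H3K27me3 lists had fragment lengths of 169 and 78 bp, which affects their peak widths.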

Additional observations from a re-analysis of the deposited data

How the results depend on the processing

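The length limit set how many domains there were. At 4000 bp there were 2105 domains with 2421 genes and 192 list genes, at 6000 bp 500 domains with 574 genes, and with peaks within 1000 bp joined 1581 domains with 1820 genes, against 983, 1124 and 105. The median share covered in OTX2low was 82.0% when OTX2low peaks needed a −log10 q of at least 10 and 82.8% with peaks joined in both lists. With domains chosen in the OTX2low list it was 100% under OTX2high peaks. That choice gave 51 list genes, and of those domains the authors' deposited table had 66.3% higher in OTX2high only and 12.8% in OTX2low only, with a median log2 ratio of 0.48. A mean of regions weighted by overlap gave 0.62. Recentring on the median of 0.61 over regions in all OTX2high peaks turned the median log2 ratio of the authors' deposited table to -0.01. The share of domain promoters with TATAAA was 7.21% at 4000 bp, against 9.28%, and stayed within its interval at 6000 bp and with the window nearest the summit. The H3K27me3 shares and the CpG ratio stayed within their intervals at 4000 and 6000 bp, with stricter H3K27me3 peaks and, for H3K27me3, without domains that hold tRNA or rRNA genes, a setting chosen after seeing the data. Of the counts per gene list under these settings, 50 stayed within 1.5 times and 20 did not. The 50 include lists that held no gene at a domain under either setting. All 20 changes arose at the 4000 bp limit or with domains chosen in the OTX2low list. No replicate could be left out and no paired analysis was possible because each mark and condition had 1 library.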
